A study of Mus musculus with 6 samples.

Results

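Hedgehog signaling in mouse cochlear explants was described here through 9 genes: the ligands *Shh*, *Ihh* and *Dhh*, the receptors and membrane proteins *Ptch1*, *Hhip* and *Smo*, and the transcription factors *Gli1*, *Gli2* and *Gli3*. The family was chosen by the level of *Ptch1*, which was much lower in the neomycin samples, so the difference between the groups is given for the members as a description, with no test. All 9 genes were among the 24421 gene symbols of the count table, and 7 of them were among the 15988 genes with enough counts to be fitted. *Shh* and *Ihh* had too few counts.

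The RNA came from cochleae of neonatal mice labelled WT, isolated at postnatal day 2 and kept as explants. After 12 h in culture the explants were exposed to neomycin at 1 mM over a 6 h period, and 5 more days followed in 10 µM EdU, a thymidine analog taken up by dividing cells. The control group was named by its treatment label, although 1 protocol text stands for all 6 samples. The groups held 3 samples each, control and neomycin, and each sample pooled 6 to 8 cochleae from which the anlage of the stria, the modiolus and the tectorial membrane had been removed. The labels do not say whether the pools came from separate litters, and p-values then measure only the spread between these samples.

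Hedgehog ligands are secreted proteins that bind Patched at the cell surface. Without ligand, Patched holds Smoothened inactive, and Gli2 and Gli3 are processed into repressors at the primary cilium. With ligand, Smoothened enters the cilium and full-length Gli factors turn on target genes, among which *Ptch1*, *Gli1* and *Hhip* are the usual readouts of the pathway. In the embryonic cochlea, Sonic hedgehog from the spiral ganglion is known to restrain the differentiation of hair cells (HCs).

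The sequence around the *Ptch1* start is shown because *Ptch1* is the gene on which the family was chosen, and because Gli factors are known to act on it. It is the RefSeq promoter of build GRCm38.p6 (mm10), chr13:63565686-63565985 on the minus strand, around the start site at 63565735. Another annotated start of the gene lies 7863 bases upstream. The sequence is written 5′ to 3′, with every CpG in capitals.
*Ptch1* promoter: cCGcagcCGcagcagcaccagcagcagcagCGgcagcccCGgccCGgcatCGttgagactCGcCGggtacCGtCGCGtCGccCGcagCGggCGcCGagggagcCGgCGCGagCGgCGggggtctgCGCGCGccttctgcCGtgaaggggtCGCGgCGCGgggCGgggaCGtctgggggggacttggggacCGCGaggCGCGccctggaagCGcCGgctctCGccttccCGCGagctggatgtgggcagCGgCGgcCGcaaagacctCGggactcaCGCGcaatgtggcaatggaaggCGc
This stretch of 300 bases held 47 CpG and had a GC content of 76.3%, against medians of 7 CpG and 52.7% over 27025 mouse promoters of the same length. The promoters of 6 other members were in the same RefSeq table, and they held between 12 (*Dhh*) and 39 (*Gli3*) CpG. The promoters of *Shh* and *Gli1* were not used here. A search on both strands for GACCACCCA, the letters of the known Gli site, found no match in these 7 promoters. Those letters were present in 66 of the 27025 promoters (0.244%). The shorter letters CACCCA, which lie inside the longer motif, also had no match in the 7 promoters, and 22.1% of all promoters held them. No match says only that the letters are not in these windows.

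The ligands *Shh* and *Ihh* had the lowest mean levels of the 9 genes in both groups. *Shh*, encoded on chromosome 5 of mm10 (28456815 to 28467256, minus strand), had 1, 5 and 0 counts in the 3 control samples and 0 in each neomycin sample. It shares 807 exonic bases with genes on the opposite strand, to which its few reads could also belong. *Ihh*, on chromosome 1 (74945315 to 74951672, minus strand), had 1, 10 and 1 counts in the controls and 5, 3 and 3 after neomycin. Both genes were at the edge of detection, and no fold change is given for either. A count of 0 allows up to 3 counts, which corresponded to 0.0454 to 0.0594 CPM in these libraries, CPM being the count relative to the library total after TMM scaling. This limit covers counting error only.

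*Dhh* was the ligand with a measurable level. It lies on chromosome 15 (98891152 to 98898540, minus strand) and shares 546 exonic bases with *Rhebl1* on the same strand, so that some reads could have been assigned to either gene. A further 1107 exonic bases are shared with *Gm49442* on the opposite strand, and the strand setting of the counting is not known. *Dhh* measured 1.8, 1.57 and 1.69 CPM in the controls and 1.94, 1.83 and 1.12 CPM after neomycin. Neomycin samples 1 and 2 were above every control sample and neomycin sample 3 was below every one, so the groups overlapped. The means were 1.69 ± 0.113 and 1.63 ± 0.447 CPM (SD, n = 3 each), and the log2 fold change was -0.05 with a standard error (SE) of 0.28. With 1 sample left out it ran from -0.19 to 0.16.

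*Ptch1*, the ligand receptor and inhibitor of Smoothened, was lower in every neomycin sample than in any control sample. It is encoded on chromosome 13 (63508328 to 63573598, minus strand). *Ptch1* measured 10.7, 9.66 and 7.29 CPM in the control samples, from 738, 504 and 410 counts. After neomycin it measured 3.99, 2.90 and 2.89 CPM, from 212, 171 and 155 counts. The lowest control sample was thus well above the highest neomycin sample. The means were 9.22 ± 1.74 and 3.26 ± 0.635 CPM (SD, n = 3 each), 2.83-fold lower after neomycin, with a log2 fold change of -1.5 (SE 0.19). Over the fitted genes, 1.85% had a lower log2 fold change than *Ptch1*, a low rank that its choice on this contrast fixed. These are bulk samples, in which fewer cells of a type and less RNA per cell cannot be told apart.

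A gene was called when edgeR's quasi-likelihood test gave an adjusted p-value under 0.05 and the fold change was over 1.5. Over all fitted genes 6.6% were called lower and 2.24% higher. Of the 7 fitted members, *Ptch1* lay past both thresholds, which its choice on this contrast fixed, so nothing is read from that count. Control and neomycin values were fully separate for 2 of the 7 members, *Ptch1* and *Gli2*, and for 43.5% of all fitted genes.

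**Figure D1:**
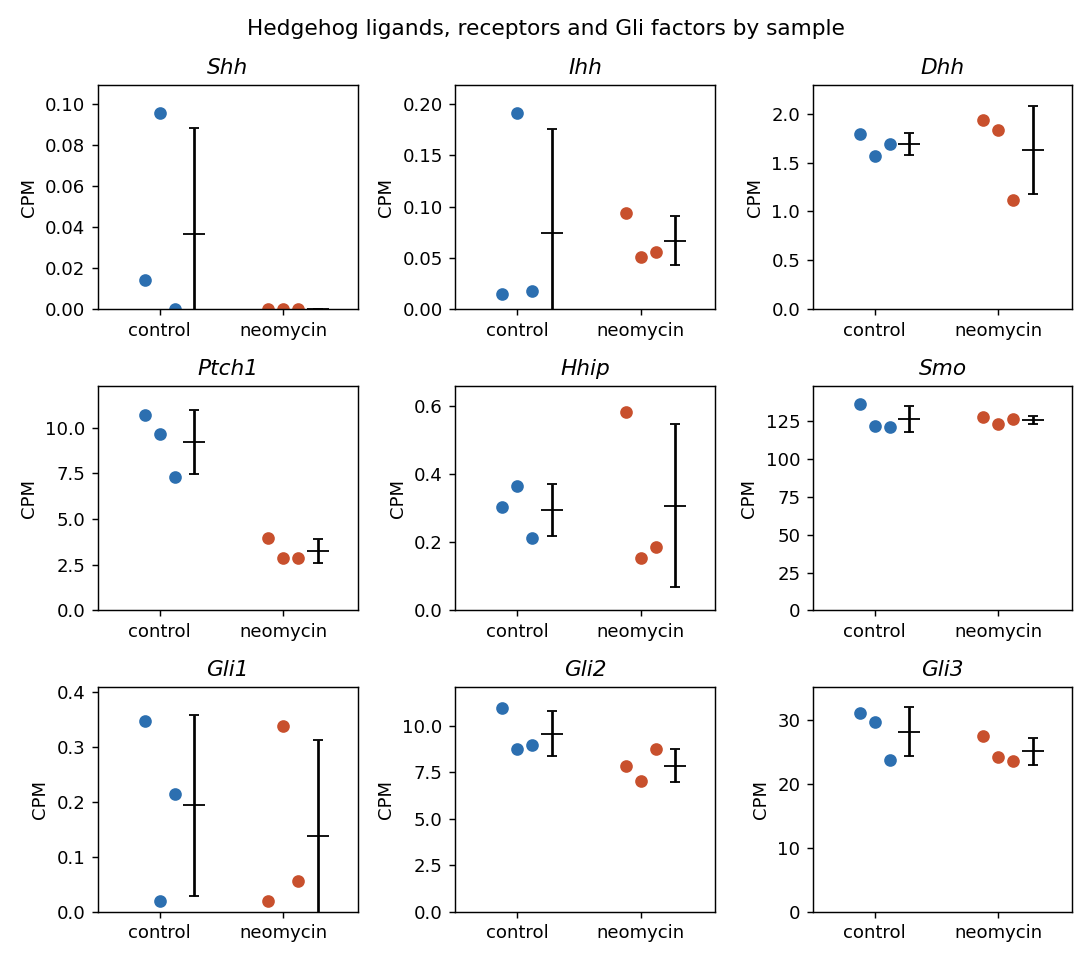
Level in CPM (vertical axes, which start at 0 and differ in range) of the 9 genes in the control (blue) and neomycin (red) samples, 1 point per sample, with the group mean and SD as bars, cut at 0. *Ptch1* sits between 7.29 and 10.7 CPM in control and between 2.89 and 3.99 CPM after neomycin, while *Smo* and *Gli3* overlap between the groups.

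*Hhip*, a membrane protein that binds ligand and limits its reach, was scarce. It lies on chromosome 8 (79965851 to 80058006, minus strand), and 175 of its exonic bases are shared with a gene on the opposite strand. *Hhip* had 21, 19 and 12 counts in the controls and 31, 9 and 10 after neomycin, or 0.294 ± 0.0759 against 0.307 ± 0.240 CPM (SD, n = 3 each). The neomycin samples lay on both sides of the control samples. The log2 fold change was 0.06 (SE 0.58), and it ran from -0.79 (without neomycin sample 1) to 0.39 (without neomycin sample 2) with 1 sample left out.

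*Smo*, the signal transducer that Patched inhibits, hardly differed between the groups. It lies on chromosome 6 (29735503 to 29761365, plus strand). *Smo* measured 136, 122 and 121 CPM in the controls and 128, 123 and 126 CPM after neomycin. All neomycin samples fell within the control range. The means were 126 ± 8.66 and 126 ± 2.58 CPM (SD, n = 3 each), and the log2 fold change was -0.01 (SE 0.07).

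*Gli1*, the activator and target gene read most often as a sign of pathway activity, had few counts, scattered within both groups. It lies on chromosome 10 (127329882 to 127341974, minus strand), and 327 of its exonic bases are shared with genes on the opposite strand. *Gli1* had 24, 1 and 12 counts in the controls and 1, 20 and 3 counts after neomycin. The exact 95% Poisson interval of the 24 counts ran from 15.4 to 35.7, while that of a single count ran from 0.0253 to 5.57. The 20 counts of neomycin sample 2 had an interval of 12.2 to 30.9, and the 3 counts of neomycin sample 3 had one of 0.619 to 8.77. The SD within groups was 1.46 on the log2 scale, and 1.96% of the 560 fitted genes within 2-fold of the *Gli1* level had an SD as large. The means were 0.193 ± 0.165 and 0.138 ± 0.175 CPM (SD, n = 3 each), with a log2 fold change of -0.49 (SE 0.92). Without neomycin sample 2 it was -2.35, without control sample 1 it was 0.25 and without neomycin sample 1 it was 0.0057, so that neither its size nor its direction held when 1 sample was left out.

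*Gli2*, the main activator of the pathway in many tissues, measured 11.0, 8.74 and 8.98 CPM in the controls and 7.83, 7.0 and 8.73 CPM after neomycin. The gene lies on chromosome 1 (118834132 to 119053619, minus strand). The groups did not overlap, but the lowest control and the highest neomycin sample were at 8.74 and 8.73 CPM. The means were 9.56 ± 1.22 and 7.85 ± 0.866 CPM (SD, n = 3 each), and the log2 fold change was -0.29 (SE 0.14). It was -0.17 without control sample 1, the highest of the 6.

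*Gli3*, the main source of the Gli repressor, lies on chromosome 13 (15463235 to 15730026, plus strand). It shares 188 exonic bases with *Gm6556* on the opposite strand. *Gli3* measured 31.2, 29.8 and 23.8 CPM in the controls and 27.6, 24.3 and 23.6 CPM after neomycin. The groups overlapped. The means were 28.2 ± 3.90 and 25.2 ± 2.12 CPM (SD, n = 3 each), and the log2 fold change was -0.17 (SE 0.11). Without control sample 1 it was -0.08.

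**Figure D2:**
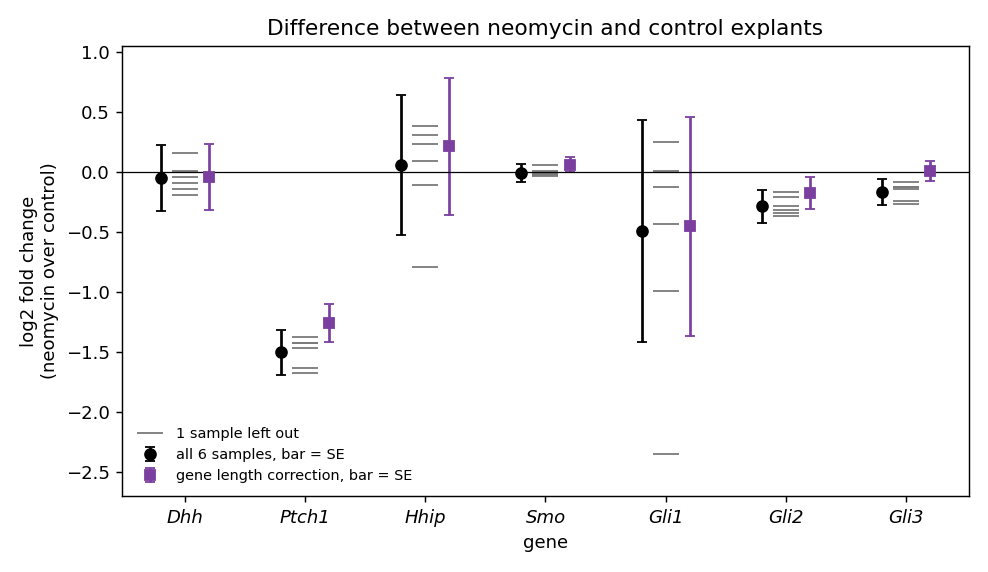
Log2 fold change (neomycin over control, vertical axis) of the 7 fitted members, with SE bars from all 6 samples (black), with 1 sample left out (grey lines) and after a correction for gene length (purple). *Ptch1* stays between -1.67 and -1.37 with 1 sample left out, whereas *Gli1* runs from -2.35 to 0.25.

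Levels of different genes were compared as CPM per kb of exon, which takes gene length into account. In the control samples *Smo* was highest at 22.5 ± 1.54, followed by *Gli3* at 2.95 ± 0.406, *Gli2* at 1.39 ± 0.178, *Ptch1* at 0.650 ± 0.123 and *Dhh* at 0.383 ± 0.0256 CPM per kb (SD, n = 3 each). No neighbours among these 5 genes overlapped between samples. The step from *Smo* to *Gli3* was the widest of these, at 7.63-fold. *Gli1*, *Hhip*, *Ihh* and *Shh* were at most 0.0696 CPM per kb in any control sample, and each overlapped the next in order.

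In the neomycin samples *Smo*, *Gli3* and *Gli2* kept the first places, at 22.4 ± 0.458, 2.62 ± 0.221 and 1.14 ± 0.126 CPM per kb (SD, n = 3 each). *Ptch1*, at 0.23 ± 0.0448, came after *Dhh*, at 0.370 ± 0.102 CPM per kb. These neighbours overlapped between samples, since *Ptch1* ran up to 0.281 and *Dhh* down to 0.254. *Gli1*, *Hhip* and *Ihh* again overlapped each other.

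**Figure D3:**
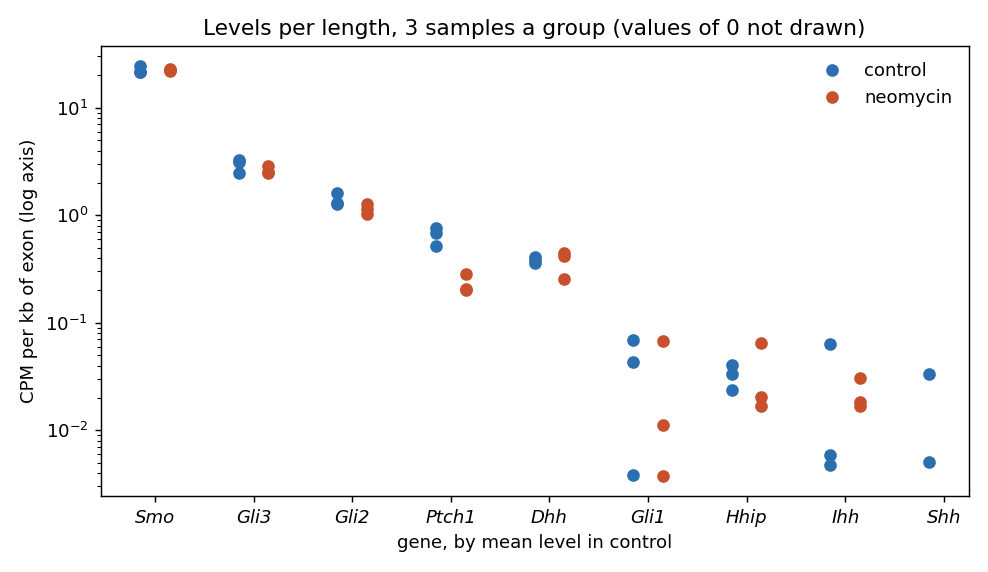
Level in CPM per kb of exon (log axis) of the 9 genes, ordered by their mean in control, with 1 point per control (blue) and neomycin (red) sample and values of 0 not drawn. *Smo*, *Gli3* and *Gli2* hold the same order in both groups. The mean of *Ptch1* moves from 0.650 to 0.23 CPM per kb, below that of *Dhh* at 0.370, although their samples overlap.

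Ratios between members within a sample do not depend on the scaling of that library. The ratio of *Smo* to *Ptch1*, in CPM per kb, was 32.2, 31.8 and 41.9 in the controls and 81.0, 107 and 110 after neomycin. The groups were far apart, with means of 35.3 ± 5.73 and 99.5 ± 16.1 (SD, n = 3 each). The ratio of *Ptch1* to *Dhh* was 1.85, 1.91 and 1.34 in the controls and 0.638, 0.491 and 0.801 after neomycin. Both ratios contain *Ptch1* and so follow from its choice. The ratio of *Gli3* to *Gli2*, which does not, was 2.03, 2.44 and 1.90 in the controls and 2.52, 2.48 and 1.94 after neomycin. Its groups overlapped, with means of 2.12 ± 0.281 and 2.32 ± 0.326 (SD, n = 3 each).

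Genes whose profile over the 6 samples was most like that of *Ptch1* were found by the root mean square distance between centred log2 CPM values, over 14035 genes with a mean of at least 1 CPM. The nearest was *Nrip1*, a corepressor of nuclear receptors, at a distance of 0.0894 on the log2 scale. *Nrip1* measured 15.2 ± 3.84 CPM in control and 5.15 ± 0.796 CPM after neomycin (SD, n = 3 each). It was followed by the zinc finger gene *Zbtb38* (0.0913), *Btbd7* (0.105), the atypical cadherin gene *Celsr3* (0.105) and the exoribonuclease gene *Xrn1* (0.108). In all, 48 genes lay within 0.2 of *Ptch1*. These genes were picked by their likeness to *Ptch1* in these same samples, which fixed that they were lower after neomycin too. For *Gli1* the nearest gene, *Gsg1l*, was at 0.69, and 0 of 14036 genes lay within 0.2, so that no gene had a profile close to its scattered counts.

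Gene length moved with the difference between the groups. The exons of *Ptch1* cover 14185 bases, more than in 97.0% of the 15869 fitted genes with a length. The exons of its 5 nearest genes cover between 11457 (*Nrip1*) and 18585 bases (*Xrn1*), against a median of 4252 bases. With all genes split by length into 5 equal bins, from the shortest to the longest, the median log2 fold change went from 0.24 through 0.09, -0.01 and -0.09 to -0.19. Among the 3409 genes within 2-fold of the *Ptch1* length the median was -0.18, and 11.0% were called lower. Of the 3409 genes, 2.23% had a lower log2 fold change than *Ptch1*. The choice of *Ptch1* on this contrast fixed such a low rank, so nothing is read from it. After a correction that removed the trend with length, the log2 fold change of *Ptch1* was -1.26 (SE 0.16), that of *Gli2* was -0.18 (SE 0.13) and that of *Gli3* was 0.01 (SE 0.09). The cause of the trend was not tested.

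**Figure D4:**
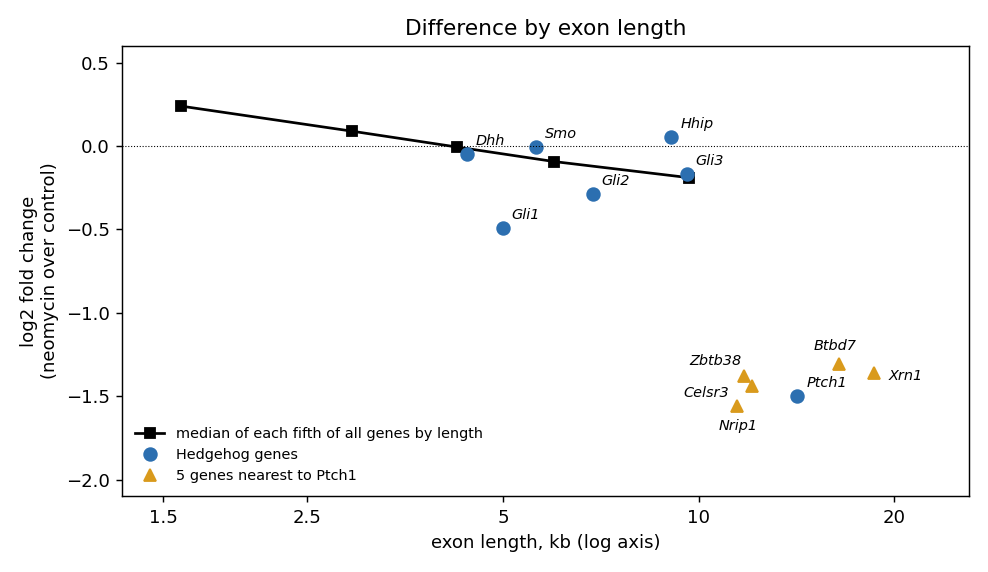
Log2 fold change (neomycin over control) against exon length (kb, log axis) for the 7 fitted Hedgehog genes (blue circles), the 5 genes nearest to *Ptch1* in profile (orange triangles) and the medians of 5 equal bins of all fitted genes by length (black squares). The medians run from 0.24 to -0.19. *Ptch1* and its nearest genes lie far below them, which their choice on these same samples fixed.

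The rest of the pathway was described with 4 lists of 62 other genes, of which 59 were fitted. Called genes were 5 lower (8.47%) and 1 higher (1.69%), next to 6.6% and 2.24% of all fitted genes, so these shares were near the background. By the adjusted p-value alone 11 genes (18.6%) were lower, near the background of 16.1%, and 3 (5.08%) were higher, below the background of 12.9%. The median log2 fold change of the 59 genes was -0.08, against -0.00 for all fitted genes.

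Among genes for ligand release and co-receptors, 2 of 10 fitted genes were called lower (20%) and 0 higher, next to 6.6% and 2.24% of all fitted genes. *Scube2*, which helps ligand leave the cell, measured 2.87, 2.40 and 2.74 CPM in the controls and 2.11, 0.712 and 1.25 CPM after neomycin. Its log2 fold change was -0.98 (SE 0.33, adjusted p = 0.0426). *Disp1*, which exports ligand, measured 64.3, 49.9 and 45.3 CPM in the controls and 29.7, 30.1 and 42.0 CPM after neomycin. Its log2 fold change was -0.65 (SE 0.14, adjusted p = 0.00609). *Scube3* was at -0.54 on the log2 scale (adjusted p = 0.00144) and did not pass the fold threshold. Control and neomycin samples were fully separate for these 3 genes, which were named by the size of their difference. The same held for 43.5% of all fitted genes, in either direction. The co-receptor genes *Cdon* (log2 fold change -0.34), *Boc* (-0.21) and *Gas1* (0.08) were not called. Of these, *Cdon* had an adjusted p-value of 0.0187 in edgeR and missed the fold threshold.

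Among 21 regulators of Smoothened and the Gli factors, 1 was called lower (4.76%) and 0 higher, next to 6.6% and 2.24% of all fitted genes. *Gpr161*, a ciliary receptor that holds the pathway off, measured 2.14, 1.48 and 0.712 CPM in the controls and 0.584, 0.593 and 0.0931 CPM after neomycin. Its log2 fold change was -1.77 (SE 0.56, adjusted p = 0.0322). It was low in every sample, with 5 to 148 counts. *Stk36* (log2 fold change -0.39) and *Gsk3b* (-0.33), which encodes a kinase that marks Gli for processing, were not called. *Gsk3b* had an adjusted p-value of 0.0139 in edgeR and missed the fold threshold. The same held for *Tulp3*, which acts in ciliary transport (-0.23, adjusted p = 0.0202), and, in the higher direction, for the arrestin gene *Arrb2* (0.27, adjusted p = 0.0426). *Sufu*, which binds and restrains Gli, had a log2 fold change of -0.19, and the ciliary kinesin gene *Kif7* had -0.05. Neither was called.

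None of the 12 primary cilium genes was called by edgeR. The largest differences were in *Inpp5e* (log2 fold change -0.27), *Dync2h1* (-0.24) and *Ift172* (-0.23), which serve ciliary lipid composition and transport within the cilium. By the adjusted p-value alone, 1 of the 12 genes (8.33%) was lower, *Ift172* (adjusted p = 0.0451), next to 16.1% of all fitted genes. DESeq2 and limma-voom called 0 of the 12 in either direction, and 2 were lower at an unadjusted p-value under 0.05 in edgeR.

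Of 16 fitted genes known as Gli targets in some tissues, 2 were called lower (12.5%) and 1 higher (6.25%), next to 6.6% and 2.24% of all fitted genes. The cyclin gene *Ccnd2* measured 111, 108 and 87.9 CPM in the controls and 62.6, 70.2 and 69.5 CPM after neomycin, with a log2 fold change of -0.61 (SE 0.09, adjusted p = 0.000741). *Foxm1*, a transcription factor of the cell cycle, went from 9.35 ± 2.09 to 6.23 ± 1.17 CPM (SD, n = 3 each) with overlapping groups, and its log2 fold change was -0.59 (SE 0.18, adjusted p = 0.0301). *Osr1*, a transcription factor of mesenchyme, went from 13.5 ± 0.700 to 20.2 ± 0.559 CPM (SD, n = 3 each), a log2 fold change of 0.59 (SE 0.09, adjusted p = 0.000834). *Ccnd2*, *Foxm1* and *Osr1* were close to the fold threshold, which is 0.585 on the log2 scale. *Ccnd1*, another cyclin gene (-0.40, adjusted p = 0.00833 in edgeR), and *Rab34* (0.33, adjusted p = 0.00577) passed the adjusted p-value but not the fold threshold. *Foxa2* had at most 2 counts in any sample and *Nkx2-2* was at 0 throughout.

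**Figure D5:**
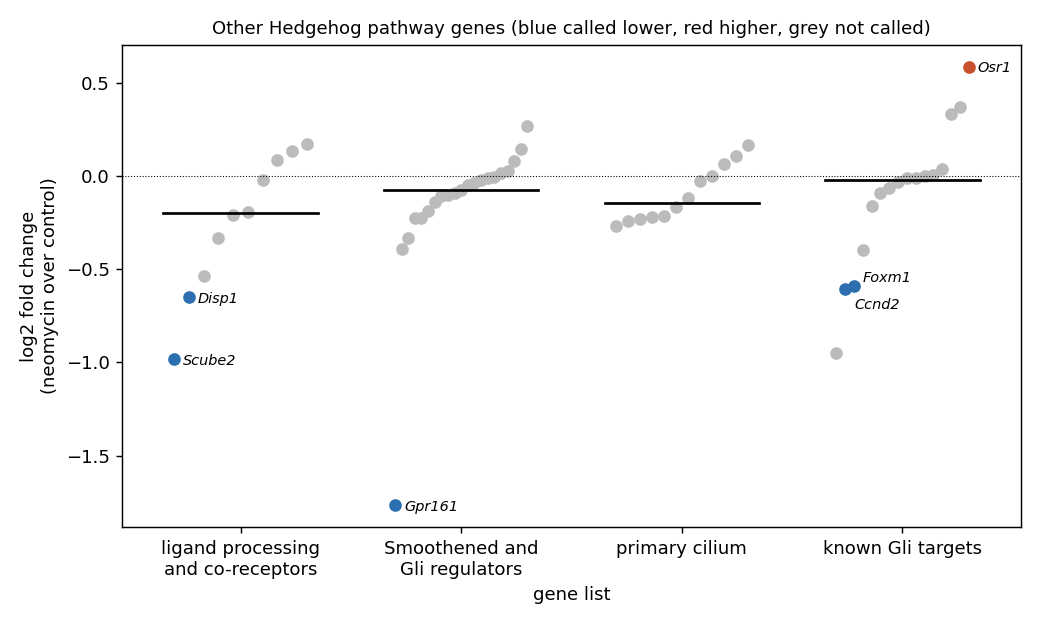
Log2 fold change (neomycin over control, vertical axis) of the 59 fitted genes in 4 Hedgehog pathway lists, 1 point per gene, with the median of each list as a line, and genes called lower in blue, higher in red and not called in grey. The named genes are those called, 5 below 0 and *Osr1* above it.

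Each of these 6 calls was lost when some single samples were left out. *Scube2* was not called without control sample 1, 2 or 3 or neomycin sample 2 or 3 (adjusted p = 0.0770 to 0.139 with edgeR), and *Gpr161* was not called without control sample 1 or 2 or neomycin sample 2 or 3 (adjusted p = 0.0571 to 0.132). *Disp1* fell below the fold threshold without control sample 1 (log2 fold change -0.48), neomycin sample 1 (-0.56) or neomycin sample 2 (-0.57). *Ccnd2* did so without control sample 1 (-0.54), control sample 2 (-0.56) or neomycin sample 1 (-0.55), and *Osr1* without control sample 1 (0.56), neomycin sample 1 (0.57) or neomycin sample 3 (0.583). *Foxm1* was not called without control sample 1 or 2 or neomycin sample 2 (adjusted p = 0.0814 to 0.131). With the correction for gene length, *Ccnd2* (-0.43), *Foxm1* (-0.51) and *Osr1* (0.41) were no longer called.

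The cell types in the explants were followed with 8 lists of 12 marker genes each, as summed CPM. Falls and rises are here genes called lower or higher, next to 6.6% and 2.24% of all fitted genes. All 12 HC markers fell, and their sum was 635 to 804 CPM in control and 152 to 176 CPM after neomycin. Of the endothelium and pericyte markers 6 fell and 0 rose (424 to 475 against 383 to 427 CPM). More than any other gene *Emcn* made up this sum (means of 252 and 273 CPM), and without it the sum was 186 to 216 CPM in control and 130 to 138 CPM after neomycin. Of the neuron markers 4 fell and 0 rose (254 to 355 against 241 to 262 CPM, or 202 to 290 against 174 to 178 CPM without *Syt1*, the most abundant). Macrophage markers rose in 5 of 12 cases (206 to 269 against 292 to 356 CPM). Supporting cell markers had 2 falls, *Prox1* and *Fgfr3*, and 1 rise, *Tectb* (5290 to 6452 against 6793 to 9925 CPM). Without *Tectb*, which alone went from a mean of 4229 to 6444 CPM, the sum was 1611 to 1647 CPM in control and 1549 to 1772 CPM after neomycin. Mesenchyme markers had 1 of each (6610 to 7307 against 6996 to 7200 CPM). Schwann cell and glia markers also had 1 of each (863 to 918 against 861 to 922 CPM), and of 8 fitted cartilage and bone markers 2 rose (5186 to 6301 against 6222 to 6664 CPM). No marker was at 0 in all samples. The part of these differences in the lower *Ptch1* was not tested.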

How the data were processed

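RNA was measured in 3 control and 3 neomycin samples of cochlear explants. The authors deposited whole-number counts per gene symbol, without normalization. According to the submitters' processing notes and the methods, bases were called with CASAVA 1.8, reads were trimmed with Trimmomatic 0.23 and aligned with HISAT2 to UCSC mm10, and genes were counted with HTSeq. The strand setting, the treatment of reads with several matches and the date of the annotation are not given in the sources used here, so overlapping genes may share reads. Total counts per sample ran from 50471116 to 66068108.

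Counts were scaled by TMM and filtered with filterByExpr in edgeR 4.0.16 (R 4.3.3), and the groups were compared with its quasi-likelihood test and Benjamini-Hochberg adjustment over 15988 genes. The call thresholds (0.05 for the adjusted p-value, 1.5 for the fold change) follow the study, which used DESeq2. Each SE was obtained from the log2 fold change and the square root of F. Distances between profiles used log2 CPM with a prior count of 2. Exon lengths and positions came from GENCODE on mm10, with 23376 symbols matched directly and 677 through an older symbol. The length correction subtracted a lowess curve (span 0.3) from each sample. The fitting code was tested on simulated data.

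The members and the gene lists were chosen with earlier results of these data known. Named were all members, the called genes of each pathway list (filled up to 3 by size of log2 fold change among genes with a mean of at least 1 CPM), and the 5 nearest profiles of *Ptch1* and *Gli1*. *Cdon*, *Boc*, *Gas1*, *Sufu*, *Kif7*, *Tulp3*, *Arrb2*, *Ccnd1*, *Rab34*, *Foxa2*, *Nkx2-2* and the single markers were named after their values were seen. Alternatives were DESeq2 1.42.0, limma-voom (limma 3.58.1), other scalings, filters and thresholds, samples left out in turn, the replicate number as a block, the length correction and the longest transcript as the length.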

Additional observations from a re-analysis of the deposited data

How the results depend on the processing

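The log2 fold change of *Ptch1* ran from -1.67 to -1.26 over the alternatives, given as a description. Without the fold threshold, 2571 genes were lower and 2058 higher in place of 1055 and 358, and pathway list genes were 11 and 3 in place of 5 and 1. Higher calls went to 233 with total count scaling and to 233 with the length correction. The share of lower calls among all calls, 74.7%, was 84.3% with total count scaling. Pathway list genes called lower were 3 with upper quartile scaling and 3 with the length correction, and those called higher were 0 with total count scaling, no filter, the 1 CPM filter or the length correction. With the length correction *Gli3* was at 0.0098. With the longest transcript as length, control levels were 0.888 for *Ptch1*, 3.46 for *Gli3* and 33.4 CPM per kb for *Smo*.

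With 1 sample left out, lower calls ran from 800 to 1159, higher calls from 237 to 513, pathway list genes from 0 to 4 lower and from 0 to 1 higher, *Gli1* from -2.35 to 0.25 and *Hhip* from -0.79 to 0.39. *Foxm1* was also not called with DESeq2, RLE scaling, upper quartile scaling or the replicate block, nor *Ccnd2* with upper quartile scaling, nor *Osr1* with total count scaling or the other filters, all below the fold threshold. The cause of these changes was not tested.

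The labels do not say whether same-numbered samples belong together. The correlations of their deviations from the group means were 0.165, 0.0264 and 0.0949 over 15988 genes. Between samples of different number they ran from -0.129 to 0.0325. Whether same-numbered samples shared a batch was not tested. With the replicate number as a block, 1089 genes were lower and 376 higher, and *Ptch1* was at -1.5. Control samples 1 and 3 correlated best with their own number, and control sample 2 about as well with neomycin sample 3 (0.0325) as with its own.

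*Shh*, *Ihh*, *Gli1* and *Hhip* had few counts, each with at most 31 in any sample. The Poisson intervals of some samples did not overlap within either group for *Gli1*, nor within the neomycin group for *Hhip*. The cause of that spread was not tested.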
